A study of Homo sapiens with 45 samples.

Results

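Knockdown of the estrogen receptor in MM134 cells was measured in 6 of the 45 libraries of the series, chosen by their labels: 3 from cells given siRNA against the receptor (siER_E2) and 3 from cells given a non-targeting siRNA (siNT_E2), both groups then treated with estradiol. All genes of the table were considered, 17744 passed the filter on low counts, and each effect is siER_E2 minus siNT_E2. MM134 stands for MDA-MB-134-VI, a line that carries the estrogen receptor and was derived from invasive lobular carcinoma, the breast cancer type in which cells spread in single files. The series also held the lobular line MM330 (MDA-MB-330) and the ductal line HCC1428, and in each line siRNAs against FOXA1 (siFOXA1_E2) and MDC1 (siMDC1_E2) and a non-targeting group without hormone (siNT), with 3 libraries a group. The comparison asks which transcripts depend on the receptor while estradiol is present. Every group spent 3 days in medium with charcoal-stripped serum, which is poor in steroid hormones, was then transfected, and 24 h later received hormone or vehicle. The siER_E2, siFOXA1_E2, siMDC1_E2 and siNT_E2 cells received 100 pM estradiol, and siNT cells received vehicle, 0.01% ethanol. RNA was taken after a further 24 h, and polyadenylated RNA was sequenced with a stranded kit. The knockdown is transient, MM134 is 1 cell line, and whether replicate libraries stem from different cultures is not in the labels, so p-values measure only the spread between these libraries, which may be technical.

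The estrogen receptor alpha, encoded by ESR1, is a nuclear receptor that binds estradiol, pairs with a second receptor molecule, binds DNA at estrogen response elements and recruits coactivators or corepressors to genes. In breast cancer cells that carry it, it is known for inducing secreted proteins such as TFF1, growth and cell cycle genes such as MYC and CCND1, and its own coregulator GREB1, and for repressing another set of genes under hormone. FOXA1 opens chromatin for the receptor in luminal cells, and MDC1 is a scaffold protein of the response to DNA double-strand breaks.

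The 6 compared libraries held 25273099 to 36738812 counts each, and the 15 MM134 libraries held 24752248 to 36738812. Levels are given as CPM, counts on a per-million scale of library size after trimmed mean (TMM) scaling. The third siER_E2 library stood apart from the rest: 0.494% of its counts lay at processed pseudogenes, gene copies without introns, against 0.151% and 0.153% in the other siER_E2 libraries and 0.153% to 0.155% in the siNT_E2 libraries. Among the 14457 genes above 1 CPM, 404 were over 2-fold higher in it than in the mean of its partners, of which 330 were processed pseudogenes and 28 were protein-coding, and 31 genes were over 2-fold lower. Counts over all genes and over gene types are therefore given with and without this library. Without it, none of the 34 lists with at least 9 tested genes moved its median by more than 0.09 on the log2 scale, and the number of genes that rose or fell in a list moved by at most 3.

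The knockdown was deep. ESR1 (ENSG00000091831.23, chr6:151656691-152129619 in GRCh38) stood at 68.9, 66.4 and 62.3 CPM in the siER_E2 libraries, against 582, 570.0 and 568 CPM in the siNT_E2 libraries, an 8.71-fold lower level (log2 fold change -3.12 ± 0.04, standard error here and below; adjusted p = 1.48e-22 by edgeR's quasi-likelihood test). The siER_E2 libraries also lay below the siNT libraries without hormone, which had 366, 341 and 324 CPM, and below both other knockdowns, which averaged 117 ± 3.93 CPM in siFOXA1_E2 and 129 ± 0.388 CPM in siMDC1_E2 (SD, n = 3 each). FOXA1 rose slightly, with 578, 584 and 583 CPM in siER_E2 against 484, 463 and 464 CPM in siNT_E2 (log2 fold change 0.31 ± 0.03). MDC1 fell, with 130.4, 114 and 117 CPM in siER_E2 against 186, 184 and 189 CPM in siNT_E2 (log2 fold change -0.63 ± 0.05), while siNT cells without hormone had 183, 189 and 186 CPM.

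Of the 17744 genes tested, 10141 (57.2%) passed an adjusted p of 0.05, 5198 higher (29.3%) and 4943 lower (27.9%) in siER_E2 cells. Without the third siER_E2 library, 9597 of 18141 genes passed, 4876 higher and 4721 lower. Changes of 2-fold or more were called for 1157 genes that rose and 584 that fell, and changes of 4-fold or more for 195 and 170. The median change over all genes was 0.04 on the log2 scale. Groups of 3 did not overlap in 31.9% of genes toward higher and 30.4% toward lower siER_E2 levels, so a lack of overlap is common in these data and says little about any single gene.

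**Figure D1:**
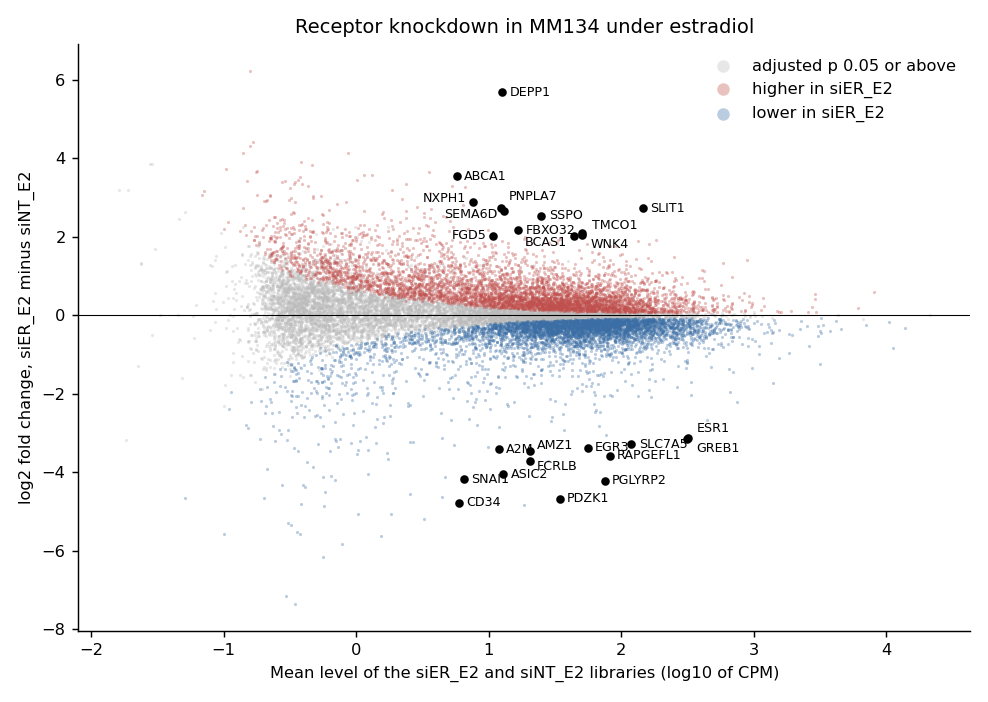
Mean level of the compared libraries (log10 of CPM, horizontal) against the log2 fold change, siER_E2 minus siNT_E2 (vertical), for each tested gene with a count in either group. Red points rose, blue points fell and grey points did not pass an adjusted p of 0.05. ESR1 and both sets of 12 extreme genes are marked, among which DEPP1 is highest at 5.68 and CD34 lowest at -4.77; all plotted genes run from -7.36 to 6.24.

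The genes with the steepest falls included the surface protein CD34, the scaffold PDZK1, the repressor SNAI1 and the receptor coregulator GREB1. They are among the 12 protein-coding genes with the lowest log2 fold change of those whose mean reached 10 CPM in siER_E2 or siNT_E2 and whose groups did not overlap. CD34, a sialomucin of blood stem cells and endothelium, had 0.393, 0.34 and 0.516 CPM in siER_E2 libraries, against 12.2, 10.5 and 11.98 CPM in siNT_E2 libraries (log2 fold change -4.77 ± 0.25, adjusted p = 2.95e-13). PDZK1, a scaffold protein for membrane transporters, had 2.00, 2.80 and 2.97 CPM in siER_E2, against 62.7, 70.3 and 65.2 CPM in siNT_E2 (log2 fold change -4.67 ± 0.11). PGLYRP2, an amidase that cuts bacterial peptidoglycan, had 8.58, 6.50 and 7.77 CPM in siER_E2, against 143, 141 and 144 CPM in siNT_E2 (log2 fold change -4.22 ± 0.06). In each gene every siER_E2 library lay far below every siNT_E2 library, and siNT cells without hormone had means of 0.128, 1.52 and 2.68 CPM in that order.

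SNAI1, a repressor of the E-cadherin gene CDH1, had 0.819, 0.529 and 0.677 CPM in siER_E2, against 12.7, 13.3 and 10.9 CPM in siNT_E2 (log2 fold change -4.17 ± 0.22). CDH1 itself had 22.4, 22.4 and 20.7 CPM in siER_E2, against 21.6, 21.3 and 22.4 CPM in siNT_E2, with a log2 difference of 0.00 ± 0.07 that did not pass the test (adjusted p = 0.98). GREB1, the receptor coregulator, had 66.2, 61.6 and 64.3 CPM in siER_E2, against 566, 576 and 568 CPM in siNT_E2 (log2 fold change -3.15 ± 0.04, adjusted p = 1.27e-23). The siNT libraries without hormone had 45.2, 45.5 and 43.1 CPM of GREB1.

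SLC7A5, the transporter that brings large neutral amino acids into the cell, had 22.1, 20.8 and 23.8 CPM in siER_E2, against 212, 222 and 217 CPM in siNT_E2. EGR3, an immediate early zinc finger factor, had 10.3, 9.30 and 9.93 CPM in siER_E2, against 104, 105 and 97.9 CPM in siNT_E2. RAPGEFL1, a relative of Rap exchange factors, had 11.7, 11.9 and 14.3 CPM in siER_E2, against 153, 152 and 150.4 CPM in siNT_E2. In none of these did a siER_E2 library come near a siNT_E2 library, and the log2 fold changes were -3.28 ± 0.06, -3.38 ± 0.06 and -3.58 ± 0.05. The other genes of the 12 were the proton-gated channel ASIC2 at -4.05, FCRLB at -3.70, the metallopeptidase AMZ1 at -3.46 and the protease inhibitor A2M at -3.42, all as log2 fold changes.

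The genes that rose most, by the same rule, included DEPP1, ABCA1, SLIT1 and FBXO32. DEPP1, a FOXO-induced protein linked to autophagy, had 24.3, 25.5 and 25.1 CPM in siER_E2 libraries, against 0.651, 0.351 and 0.401 CPM in siNT_E2 libraries (log2 fold change 5.68 ± 0.15, adjusted p = 2.19e-18). ABCA1, which exports cholesterol and phospholipid from cells, had 11.8, 10.6 and 9.45 CPM in siER_E2, against 0.962, 1.19 and 0.521 CPM in siNT_E2 (log2 fold change 3.54 ± 0.18). FBXO32, a substrate receptor of a ubiquitin ligase, had 28.4, 25.5 and 28.4 CPM in siER_E2, against 6.45, 5.80 and 6.09 CPM in siNT_E2 (log2 fold change 2.16 ± 0.08). The siNT libraries without hormone were also high in these genes, with means of 18.4 CPM for DEPP1, 9.02 CPM for ABCA1 and 23.96 CPM for FBXO32.

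SLIT1, a secreted guidance cue that binds ROBO receptors, had 260.3, 240.4 and 258 CPM in siER_E2, against 38.9, 36.9 and 38.5 CPM in siNT_E2 (log2 fold change 2.73 ± 0.05, adjusted p = 3e-21). Its siER_E2 libraries also lay above the siNT libraries, at 154, 156 and 164 CPM. SEMA6D, a transmembrane semaphorin, had 23.4, 23.3 and 21.3 CPM in siER_E2, against 3.11, 4.60 and 3.04 CPM in siNT_E2 (log2 fold change 2.66 ± 0.14). The remaining genes rose by 2.89 (NXPH1, a secreted ligand of neurexins), 2.74 (PNPLA7, a lysophospholipase), 2.54 (SSPO, a large extracellular glycoprotein), 2.05 (WNK4, a kinase that controls ion cotransporters), 2.03 (FGD5, an exchange factor for CDC42), 2.03 (BCAS1) and 2.10 (TMCO1, a calcium channel of the endoplasmic reticulum) on the log2 scale.

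The calcium channel gene TMCO1 had 82.2, 83.8 and 82.7 CPM in siER_E2 libraries, against 18.9, 20.5 and 18.7 CPM in siNT_E2 libraries, and siNT libraries without hormone had 24.2, 23.8 and 23.2 CPM. The siFOXA1_E2 and siMDC1_E2 libraries averaged 78.4 ± 2.71 and 85.9 ± 2.30 CPM (SD, n = 3 each), so all 9 knockdown libraries lay above all 6 non-targeting libraries. Over all genes, 639 (3.6%) had the 9 knockdown libraries above the 6 non-targeting ones and 435 (2.45%) had them below. In this look at the groups, which was chosen after the values were seen, the protein-coding genes with at least 10 CPM in some group, and with every knockdown mean at least 2-fold from both non-targeting means, were TMCO1, APP, FAM8A1 and STC1 upward and ESR1 downward. APP, the amyloid precursor protein, averaged 839 ± 33.98 CPM in siER_E2, 1202 ± 7.64 CPM in siFOXA1_E2 and 953 ± 30.99 CPM in siMDC1_E2, against 332 ± 2.77 CPM in siNT_E2 and 405 ± 6.26 CPM in siNT. For such genes, loss of the target and an effect of the non-targeting siRNA cannot be told apart in these groups. Nor can the lower ESR1 level that the knockdowns share be separated from them.

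**Figure D2:**
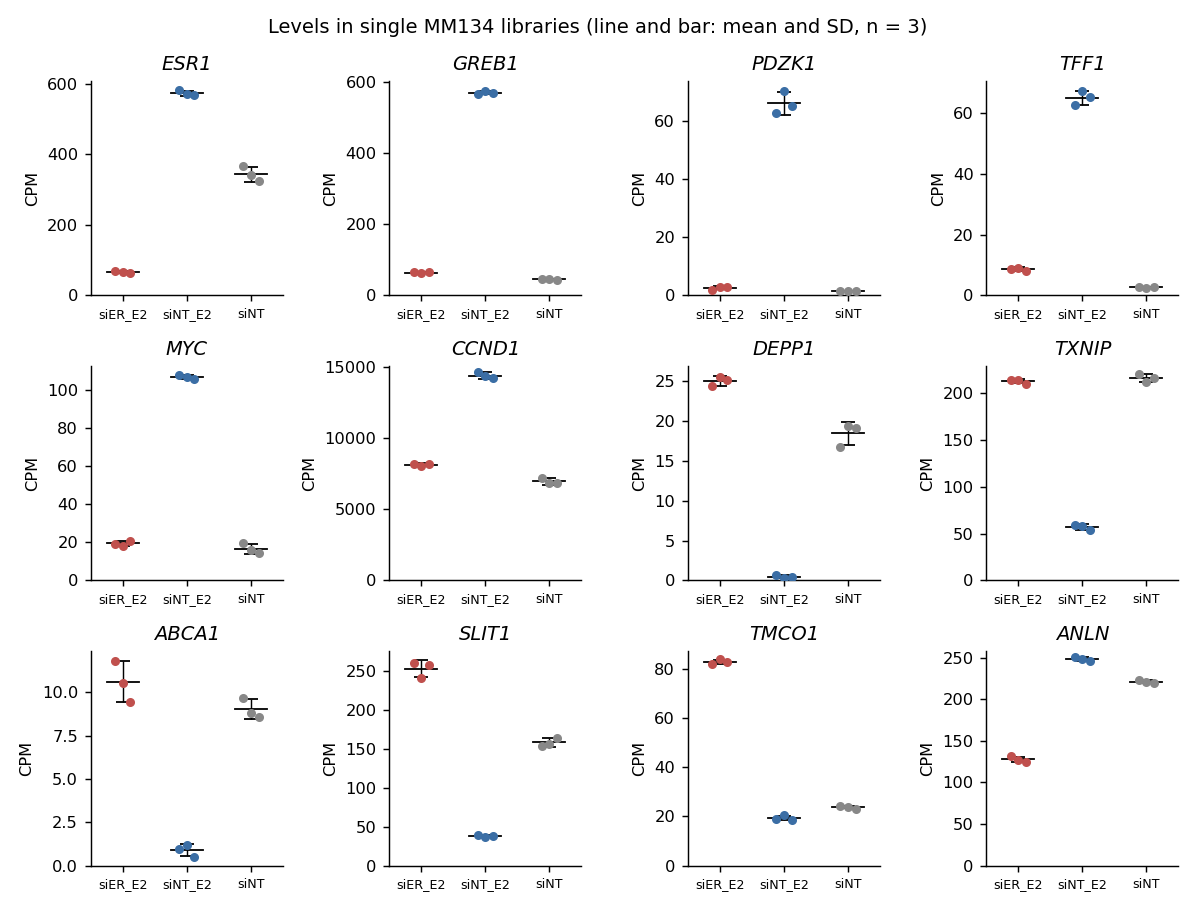
CPM (vertical, linear from 0) of 12 genes in single MM134 libraries of siER_E2 (red), siNT_E2 (blue) and siNT without hormone (grey), with the mean as a line and the SD as a bar (n = 3). In ESR1, siER_E2 lies below both other groups; in GREB1, PDZK1, TFF1, MYC and CCND1 its mean lies between siNT and siNT_E2, nearer to siNT; in SLIT1 and TMCO1 it lies above both, and in ANLN below both.

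The promoters of the changed genes were searched for the estrogen response element GGTCANNNTGACC, an inverted repeat that reads the same on both strands, in windows of 250 bases before to 50 bases after the start site (RefSeq, GRCh38.p14). Windows were found for 11037 of the 17744 genes. The full element occurred in 2 of them (0.0181%) and the element with at most 1 mismatch in 56 (0.507%). Among genes that fell 2-fold or more, 5 of 345 windows (1.45%) held it with at most 1 mismatch, against 1 of 580 (0.172%) among genes that rose 2-fold or more and 21 of 3738 (0.562%) among genes that were not called. None of the windows of 30 estradiol-induced intracellular targets and 16 secreted targets held it, so the matches lie outside these lists. The single arm GGTCA on either strand, which every full element also holds, was in 35.9% of the windows of fallers, 31% of those of risers and 34.3% of all. None of the 12 highest and 12 lowest genes that have a window held the element there, and the sequences below belong to genes that fell and hold it, chosen after their values were seen to show what the matches look like. They are read 5′ to 3′ on the strand of the gene, with the matched element in capitals and positions of a mismatch counted from 1 at its 5′ end.
LINC02130: gcgtcggaGGTCAGAGTGACCgggagcag
GLA: tgctgtccGGTCACCGTGACAatgcagct
TMEM26: cttcgGGTCAGCATGACAgcgtgaaa
ADAMTSL5: cctgccaaGGTCACCCGGACCcgggcgcc

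The LINC02130 element is complete, and begins 141 bases before the start site; the printed stretch lies at chr16:14370387-14370415 on the minus strand. This long noncoding RNA had 0.36, 0.378 and 0.29 CPM in siER_E2, against 1.33, 1.51 and 1.76 CPM in siNT_E2 (log2 fold change -2.15 ± 0.37), so it is barely detected in either group. GLA, the lysosomal alpha-galactosidase, holds its element with the mismatch C13A, in the stretch chrX:101407896-101407924 on the minus strand. This element begins after the start site, at position 10. GLA had 21.6, 20.8 and 21.2 CPM in siER_E2, against 81.1, 82.4 and 79.3 CPM in siNT_E2 (log2 fold change -1.93 ± 0.06, adjusted p = 1.08e-17). TMEM26 (chr10:61453606-61453631, minus strand, C13A) changed by -1.56 ± 0.17 and ADAMTSL5 (chr19:1513220-1513248, minus strand, T9G) by -1.21 ± 0.08 on the log2 scale. The matches of CXCR1, which fell (-2.385), and LINC00482, which rose (1.244 on the log2 scale), are not printed. A match is a stretch of letters and not a measured binding site, and the windows leave out distal elements.

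Most listed targets of estradiol fell with the receptor. Of 21 tested genes for secreted targets, 14 fell and 3 rose, with a median log2 fold change of -1.19. Of 44 tested genes for intracellular targets, 43 fell and none rose, with a median of -1.45, though 1 rose without the second siER_E2 or the second siNT_E2 library. FOS, at 0.26 ± 0.13, did not pass (adjusted p = 0.096). The share called was 81% and 97.7%, where 57.2% of all genes and 66.8% of protein-coding genes were called. For the lists below, a share near 57.2% or 66.8% is not a result about the list. All lists were written with earlier results of these data known, so their counts and medians describe the lists and are not independent evidence. TFF1, a secreted trefoil peptide, had 8.78, 9.15 and 7.96 CPM in siER_E2, against 62.7, 67.2 and 65.4 CPM in siNT_E2 (log2 fold change -2.92 ± 0.07). AREG, a ligand of the EGF receptor, had 17.2, 16.98 and 15.5 CPM in siER_E2, against 136, 138 and 138 CPM in siNT_E2 (log2 fold change -3.05 ± 0.07). IGFBP4, which binds insulin-like growth factors, had 282, 249 and 272 CPM in siER_E2, against 1212, 1257 and 1233 CPM in siNT_E2 (log2 fold change -2.21 ± 0.04).

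The siNT means were 2.63 CPM for TFF1 and 184 CPM for IGFBP4, below every siER_E2 library, and 21.3 CPM for AREG, above every one. CTSD, a lysosomal protease, fell by 1.18 on the log2 scale (194 against 440.3 CPM), and the scaffold SLC9A3R1 changed by -1.45 ± 0.03 (376 against 1028 CPM). The secreted targets that rose were STC1 at 1.22 ± 0.12, SCGB1D2 at 1.84 ± 0.24 and TGFA at 0.28 ± 0.09. PGR, the progesterone receptor gene and a textbook estradiol target, did not pass the filter: it had 2, 1 and 3 raw counts in the siER_E2 libraries, 12, 6 and 6 in the siNT_E2 libraries and 0 in each siNT library. PGR and the genes CDH1, FOS, TGFA, BMP7, NCOA1, IGF1R, BCL2, PIK3IP1, MVK and GATA3 fall outside the rule that names genes and were chosen after their values were seen.

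Of 26 tested genes listed as repressed by estradiol, 18 rose and 3 fell, with a median of 0.74 and a called share of 80.8%. TXNIP, an inhibitor of thioredoxin and of glucose uptake, had 214, 214 and 209.7 CPM in siER_E2, against 58.9, 58.3 and 53.8 CPM in siNT_E2 (log2 fold change 1.90 ± 0.04, adjusted p = 1.04e-20). IL1R1, the receptor of interleukin 1, had 241, 236 and 229.9 CPM in siER_E2, against 87.95, 83.4 and 87.3 CPM in siNT_E2 (log2 fold change 1.45 ± 0.03). CCNG2, an atypical cyclin of resting cells, had 126, 132 and 124 CPM in siER_E2, against 36.3, 40.1 and 36.1 CPM in siNT_E2 (log2 fold change 1.76 ± 0.04). The groups were far apart in each, and siNT means were 216, 316 and 132 CPM in that order. The genes of this list that fell were PMAIP1 (-1.79 ± 0.13), PDCD4 (-0.79 ± 0.04) and BMP7 (-0.68 ± 0.10).

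**Figure D3:**
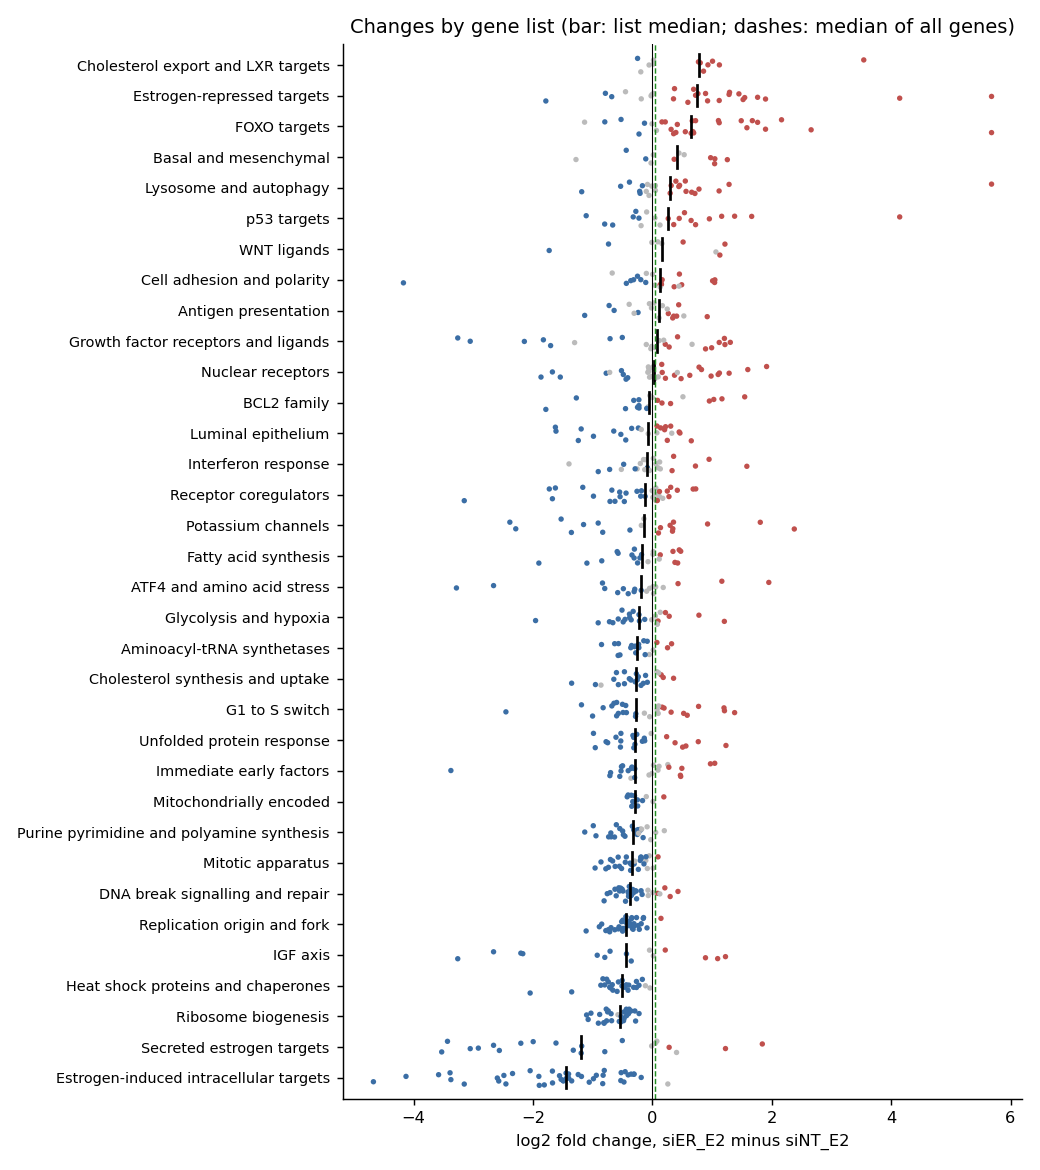
Log2 fold change, siER_E2 minus siNT_E2 (horizontal), of each tested gene in the 34 lists with at least 9 tested genes (rows, ordered by median). Red points rose, blue fell and grey did not pass; black bars are list medians and the dashed line is the median of all genes, 0.04. The estradiol-induced lists sit lowest, at -1.45 and -1.19, and the lists of LXR targets, estradiol-repressed genes and FOXO targets highest, at 0.79, 0.74 and 0.65.

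The receptor's partners moved in both directions. Of 33 tested coregulators, 8 rose and 17 fell (median -0.12), a called share of 75.8%, against 66.8% of protein-coding genes. Besides GREB1, the repressor ZNF703 had 653, 616 and 675 CPM in siER_E2, against 2177, 2138 and 2124 CPM in siNT_E2 (log2 fold change -1.73 ± 0.03), and the AP-2 factor TFAP2C changed by -1.63 ± 0.04. The p160 coactivators NCOA2 and NCOA3 rose by 0.73 and 0.68, with means of 146 and 173 CPM in siER_E2, against 88.05 and 108 CPM in siNT_E2. Their relative NCOA1 had a change of 0.17 ± 0.07 that did not pass (adjusted p = 0.055).

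Of 34 tested nuclear receptor genes, 14 rose and 8 fell (median 0.03), a called share of 64.7% that lies near that of protein-coding genes. The glucocorticoid receptor NR3C1 had 36.4, 43.4 and 37.9 CPM in siER_E2, against 22.5, 21.4 and 22.5 CPM in siNT_E2 (log2 fold change 0.82 ± 0.06). PPARA and RXRA rose by 1.10 and 0.63. The retinoic acid receptor RARA fell, with 89.01, 82.5 and 84.4 CPM in siER_E2, against 280.5, 265 and 272 CPM in siNT_E2 (log2 fold change -1.68 ± 0.04). The vitamin D receptor VDR also fell (-0.78 ± 0.04), and its siER_E2 mean of 32.5 CPM lay below both 55.6 CPM in siNT_E2 and 58.9 CPM in siNT.

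Of 24 tested growth factor receptors and ligands, 9 rose and 7 fell (median 0.08), and the called share of 66.7% was near that of protein-coding genes. The neuregulin receptor ERBB3 had 585, 569.5 and 577 CPM in siER_E2, against 258, 269 and 270.2 CPM in siNT_E2 (log2 fold change 1.12 ± 0.03). Its partner ERBB2 rose by 0.89 (188 against 102 CPM), the fibroblast growth factor receptor FGFR4 by 1.22 (191 against 82.2 CPM) and FGFR1 by 0.42 (3302 against 2466 CPM). RET, the receptor of the GDNF family, fell, with 116, 112 and 118 CPM in siER_E2, against 402, 417 and 412 CPM in siNT_E2 (log2 fold change -1.83 ± 0.04). In the insulin-like growth factor axis, 9 of 15 tested genes fell and 4 rose (median -0.44, called share 86.7%). STC2, a secreted inhibitor of the protease that frees these factors, had 133, 115 and 115 CPM in siER_E2, against 769.7, 766 and 761 CPM in siNT_E2 (log2 fold change -2.66 ± 0.09). The receptor IGF1R changed by -0.71 ± 0.04, its adaptor IRS1 by -0.93 ± 0.04, IGFBP5 by -2.17 ± 0.07 and IGFBP3 by 0.89 ± 0.07, the last upward.

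More cell cycle genes fell than rose, most of them by less than 2-fold. In the G1 to S switch, 15 of 29 tested genes fell and 9 rose (median -0.28, called share 82.8%). MYC, the growth transcription factor, had 19.3, 18.2 and 20.8 CPM in siER_E2, against 108, 107 and 106 CPM in siNT_E2 (log2 fold change -2.46 ± 0.06, adjusted p = 1.79e-18). CCND1, the cyclin of G1, had 8204, 8024 and 8189 CPM in siER_E2, against 14686, 14367 and 14224 CPM in siNT_E2 (log2 fold change -0.83 ± 0.03). CDKN1A, the CDK inhibitor p21, had 155, 158 and 156 CPM in siER_E2, against 59.00, 59.5 and 61.98 CPM in siNT_E2 (log2 fold change 1.38 ± 0.03). Its means were 147 CPM in siFOXA1_E2, 171 CPM in siMDC1_E2 and 119 CPM in siNT. CDKN1A thus stood above both non-targeting means under every targeting siRNA. The kinase CDK6 rose with it (1.21 ± 0.04), while the phosphatase CDC25A (-1.003 ± 0.04) and the S phase factor MYBL2 (-0.60 ± 0.03) fell.

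All 38 replication genes passed the test, 37 lower and 1 higher, with a median of -0.44. The flap endonuclease FEN1 had 125, 127 and 129 CPM in siER_E2, against 269.5, 275 and 279 CPM in siNT_E2 (log2 fold change -1.11 ± 0.03), and it was the sole member of the list that fell 2-fold or more. The helicase subunit MCM7 changed by -0.69 ± 0.03, and the origin factors MCM10 and CDC6 by -0.89 ± 0.04 and -0.85 ± 0.04. The clamp loader subunit RFC1 rose by 0.14. Of 30 mitotic genes, 24 fell and 1 rose (median -0.35, called share 83.3%), and none changed 2-fold. ANLN, a scaffold of the cleavage furrow, had 132, 126 and 125 CPM in siER_E2, against 251, 248 and 246 CPM in siNT_E2 (log2 fold change -0.96 ± 0.03), with 224, 221 and 219 CPM in siNT libraries. BIRC5 (survivin) changed by -0.86 ± 0.04 and the kinase AURKB by -0.78 ± 0.05. The spindle checkpoint kinase BUB1 was called higher (0.09 ± 0.04, adjusted p = 0.043), but lost the call under other settings. Its adjusted p was 0.087 with RLE scaling, 0.177 or 0.16 without the first or the second siER_E2 library, and 0.23 or 0.0846 without the second or the third siNT_E2 library, all in edgeR.

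Of 35 tested genes of DNA break signalling and repair, 27 fell and 4 rose (median -0.37, called share 88.6%), and none reached 2-fold. Without the first siNT_E2 library, 2 rose. XRCC5, the Ku80 subunit of the end-joining machinery, had 276, 283 and 274 CPM in siER_E2, against 495, 486 and 478 CPM in siNT_E2 (log2 fold change -0.81 ± 0.03). The Fanconi protein FANCD2 changed by -0.71 ± 0.03 and the mismatch repair protein MSH6 by -0.61 ± 0.03. The kinase ATM rose by 0.30 and the nuclease MRE11 by 0.21. MDC1, which belongs to this list and is the target of another arm of the study, stood at 120.5 CPM in siER_E2, 186 CPM in siNT_E2 and 186 CPM in siNT, and at 42.7 CPM after its own siRNA.

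Genes of cell survival and stress control were divided, as were protein-coding genes as a whole (4200 of 13179 rose and 4600 fell). In the BCL2 family, 7 of 20 tested genes rose and 9 fell (median -0.06), a called share of 80%, against 66.8% of protein-coding genes. Among the genes for BH3-only killers, BMF (1.03 ± 0.04) and BIK (1.55 ± 0.12) rose, and PMAIP1 (Noxa, -1.79 ± 0.13) and BID (-1.27 ± 0.08) fell. BCL2 itself, a survival protein, fell by 0.31 on the log2 scale (38.4 against 47.8 CPM). Of 21 tested p53 targets, 11 rose and 6 fell (median 0.27, called share 81%). BTG2, an antiproliferative factor, had 70.6, 72.4 and 77.7 CPM in siER_E2, against 23.1, 23.3 and 23.3 CPM in siNT_E2 (log2 fold change 1.66 ± 0.05), CCNG1 changed by 1.16 ± 0.07, and the nuclease AEN changed by -1.11 ± 0.06. Like CDKN1A, CCNG1 was also high in siFOXA1_E2 and siMDC1_E2, with means of 36.1 and 40.4 CPM. Its means were 17.9 CPM in siNT_E2 and 24.3 CPM in siNT.

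FOXO targets are genes that forkhead factors induce when insulin signalling is low. Of 29 tested, 22 rose and 4 fell (median 0.65, called share 89.7%), and 10 rose 2-fold or more. Besides DEPP1, TXNIP, CCNG2 and FBXO32, the gene YPEL3 had 102, 102 and 103 CPM in siER_E2, against 34.5, 32.8 and 35.4 CPM in siNT_E2 (log2 fold change 1.58 ± 0.04). The PI3K inhibitor gene PIK3IP1 averaged 29.4 CPM in siER_E2, against 9.23 CPM in siNT_E2 (log2 fold change 1.67 ± 0.06). The adaptor IRS2 (-0.80 ± 0.07) and the factor KLF6 (-0.53 ± 0.03) fell. The FOXO, p53 and estradiol-repressed lists share genes, so their counts are not separate pieces of evidence.

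In cholesterol synthesis and uptake, 17 of 23 tested genes fell and 3 rose (median -0.27, called share 87%). The factor SREBF2, which drives this pathway, changed by -0.57 ± 0.03, and the enzymes FDFT1 and DHCR7 by -0.65 ± 0.04 and -0.95 ± 0.06. The genes that rose were TM7SF2 (0.35 ± 0.07), LSS (0.18 ± 0.04) and MVK (0.15 ± 0.05).

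In cholesterol export and LXR targets, 7 of 12 tested genes rose and 1 fell (median 0.79), a called share of 66.7%, near that of protein-coding genes. The exporter ABCG1 had 103, 96.03 and 101 CPM in siER_E2, against 55.4, 57.1 and 53.3 CPM in siNT_E2 (log2 fold change 0.86 ± 0.04), LPCAT3, a phospholipid-remodelling enzyme, changed by 1.01 ± 0.05, and SMPDL3A by 0.80 ± 0.07. The desaturase SCD fell by 0.25 on the log2 scale. In fatty acid synthesis, 11 of 21 tested genes fell and 6 rose (median -0.18, called share 81%). ELOVL2, which lengthens polyunsaturated fatty acids, had 72.3, 69.4 and 63.4 CPM in siER_E2, against 261, 255 and 249.8 CPM in siNT_E2 (log2 fold change -1.90 ± 0.04). The acyl-CoA synthetases ACSL3 (0.47 ± 0.03) and ACSL1 (0.38 ± 0.04) rose.

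In ribosome biogenesis, 29 of 30 genes fell and none rose (median -0.54, called share 96.7%). BOP1, a factor for the large ribosomal subunit, had 74.5, 70.4 and 70.9 CPM in siER_E2, against 152, 153 and 151 CPM in siNT_E2 (log2 fold change -1.08 ± 0.04). Nucleolin (NCL) changed by -0.77 ± 0.03, NOLC1 by -0.91 ± 0.04 and the box C/D protein NOP56 by -0.77 ± 0.03. In purine, pyrimidine and polyamine synthesis, 19 of 26 tested genes fell and none rose (median -0.33), a called share of 73.1%, against 66.8% of protein-coding genes. The falls were led by CTPS1 (-1.13 ± 0.04), PAICS (-0.69 ± 0.03), MTHFD2 (-0.95 ± 0.04) and ODC1 (-0.99 ± 0.05). Of 20 aminoacyl-tRNA synthetase genes, 15 fell and 3 rose (median -0.26, called share 90%). VARS was lowest at -0.85 ± 0.04, and QARS and DARS were among those that rose, at 0.25 ± 0.03 and 0.32 ± 0.04.

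In glycolysis and the hypoxia response, 15 of 25 tested genes fell and 5 rose (median -0.23, called share 80%). Of these genes, 3 rose without the first siER_E2 or the first siNT_E2 library. The glucose transporter SLC2A1 had 289, 255 and 274 CPM in siER_E2, against 1074, 1061 and 1044 CPM in siNT_E2 (log2 fold change -1.96 ± 0.06), while enolase ENO1 (-0.72 ± 0.03) and pyruvate kinase PKM (-0.66 ± 0.03) fell less. The oxygen sensor EGLN3 rose (1.21 ± 0.06), with a siER_E2 mean of 36.5 CPM, a siNT_E2 mean of 15.9 CPM and a siNT mean of 69.5 CPM. Of 13 listed genes encoded in the mitochondrial genome, 10 fell and 1 rose (median -0.3), a called share of 84.6%, against 66.8% of protein-coding genes. On raw totals, without TMM scaling, all mitochondrial genes took 9.46%, 8.83% and 8.96% of the counts in siER_E2 libraries. They took 8.91%, 9.18% and 8.64% in siNT_E2 libraries, so their summed share did not fall. MT-CYB changed by -0.41 ± 0.05 and MT-ATP6 by -0.35 ± 0.04, and MT-ND5 rose by 0.19.

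Of 27 heat shock proteins and chaperones, 25 fell and none rose (median -0.51, called share 92.6%). The small heat shock protein HSPB8 had 50.9, 53.2 and 53.2 CPM in siER_E2, against 214, 221 and 217 CPM in siNT_E2 (log2 fold change -2.05 ± 0.04). FKBP4, an HSP90 partner of steroid receptors, had 540.4, 545 and 557 CPM in siER_E2, against 1395, 1408 and 1395 CPM in siNT_E2 (log2 fold change -1.35 ± 0.03). In the unfolded protein response, 16 of 23 genes fell and 6 rose (median -0.29, called share 95.7%). The factor XBP1 changed by -0.99 ± 0.03, the chaperone HSPA5 by -0.96 ± 0.04 and CALR by -0.78 ± 0.03. CREB3L4 (0.77 ± 0.04) and calnexin, CANX (0.38 ± 0.03), rose. Among 19 tested genes of the ATF4 response, 10 fell and 3 rose (median -0.19), with a called share of 68.4%, near that of protein-coding genes. SLC7A5 and SLC1A5 (-0.84 ± 0.03) fell, and the mTORC1 inhibitor DDIT4 rose (1.95 ± 0.07).

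Of 25 tested lysosome and autophagy genes, 13 rose and 6 fell (median 0.3), a called share of 76%, against 66.8% of protein-coding genes. LAMP2, a lysosomal membrane protein, had 121, 117 and 115 CPM in siER_E2, against 72.1, 66.8 and 66.03 CPM in siNT_E2 (log2 fold change 0.78 ± 0.04), and siNT libraries had 67.1, 63.8 and 60.4 CPM. LAMP1 rose by 0.66 (176 against 112 CPM) and the sialidase NEU1 by 0.71. The proteases CTSD and CTSB (-0.53 ± 0.04) fell. LAMP2 averaged 136 CPM in siFOXA1_E2 and 124 CPM in siMDC1_E2. LAMP1 averaged 235 CPM in siFOXA1_E2 and 110.5 CPM in siMDC1_E2.

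Epithelial and luminal markers stayed abundant as sums, though some of the single genes changed. On raw totals, without TMM scaling, the 5 epithelial markers EPCAM, KRT8, KRT18, KRT19 and CDH1 summed to 5930 to 6090 CPM in siER_E2 libraries, against 9390 to 9480 CPM in siNT_E2 libraries. The luminal markers ESR1, GATA3 and FOXA1 summed to 1990 to 2070 CPM in siER_E2, against 2040 to 2090 CPM in siNT_E2. This sum includes the targeted gene ESR1, which fell, while FOXA1 and GATA3 rose (GATA3 means of 1360 against 1060 CPM). The near-equal sums therefore do not show that any of these genes was stable. Of 23 tested luminal genes, 9 rose and 10 fell (median -0.07, called share 82.6%). The keratin KRT8 had 1929, 1845 and 1841 CPM in siER_E2, against 4410, 4464 and 4409 CPM in siNT_E2 (log2 fold change -1.24 ± 0.03), and the trefoil peptide TFF3 changed by -1.62 ± 0.06. The luminal factors SPDEF and GATA3 rose by 0.65 and 0.25, and the surface protein CD24 by 0.45.

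Of 23 tested adhesion and polarity genes, 10 rose and 7 fell (median 0.13), a called share of 73.9%, against 66.8% of protein-coding genes. The catenin CTNNB1 had 119, 124 and 119.6 CPM in siER_E2, against 62.1, 59.9 and 58.6 CPM in siNT_E2 (log2 fold change 1.01 ± 0.04), with 164 CPM in siFOXA1_E2 and 101 CPM in siMDC1_E2. N-cadherin (CDH2) had 58.5, 57.5 and 59.5 CPM in siER_E2, against 29.1, 29.1 and 26.9 CPM in siNT_E2 (log2 fold change 1.04 ± 0.05). Of 12 tested basal and mesenchymal genes, 5 rose and 2 fell (median 0.4), a called share of 58.3%, below that of protein-coding genes. TWIST1 (1.05 ± 0.09), ITGB4 (1.25 ± 0.07) and SPARC (0.97 ± 0.09) rose while FN1 fell (-0.44 ± 0.04). Among 9 tested WNT ligands, 3 rose and 2 fell (median 0.16), a called share of 55.6%, below that of all genes, with WNT4, which estradiol induces in lobular lines, at -1.73 ± 0.09 and WNT9A at 1.13 ± 0.12.

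The remaining lists were mixed. Of 25 immediate early factors, 12 fell and 6 rose (median -0.29), a called share of 72%, against 66.8% of protein-coding genes. DUSP5 changed by -0.71 ± 0.05 and DUSP6, a phosphatase of ERK, by 1.04 ± 0.03. Of 19 tested potassium channels, 9 rose and 8 fell (median -0.14, called share 89.5%). They were led by KCNMA1 with 89.3, 81.6 and 87.1 CPM in siER_E2, against 25.6, 22.8 and 25.3 CPM in siNT_E2 (log2 fold change 1.81 ± 0.05), and by KCNH1 at -2.39 ± 0.11. The channel count depends on the libraries: 6 rose without the third siER_E2 library and 5 without the first or the third siNT_E2 library. Of 23 tested interferon genes, 5 rose and 5 fell (median -0.08), and of 19 antigen presentation genes, 6 rose and 4 fell (median 0.11), called shares of 43.5% and 52.6%, below that of all genes.

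Markers of other cell types, also on raw totals, were sparse. The 12 immune markers summed to 1.66 to 2.39 CPM in siER_E2 and 1.12 to 1.8 CPM in siNT_E2, with CD3D, CD3E, MS4A1 and FCGR3A at 0 in both groups. The 10 fibroblast markers summed to 110 to 113 CPM in siER_E2 and 97.4 to 105 CPM in siNT_E2, nearly all of it COL1A1 (means of 112 and 102 CPM), with COL1A2, COL3A1, DCN, LUM and THY1 at 0 in both groups. The 10 endothelial markers summed to 0.944 to 1.11 CPM in siER_E2 and 10.4 to 12.4 CPM in siNT_E2, of which CD34 made up most (means of 0.433 and 11.2 CPM), with PECAM1 and CDH5 at 0 in both groups. In bulk RNA, fewer cells of a state and less RNA per cell cannot be told apart.

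The direct comparison with the FOXA1 knockdown called 9100 of 17744 genes (51.3%), 4515 higher and 4585 lower in siER_E2. It shares its siER_E2 libraries with the comparison above. ESR1 was low in both groups, averaging 65.9 CPM in siER_E2 and 117 CPM in siFOXA1_E2 (log2 fold change -0.83 ± 0.04). Its siNT_E2 mean was 573 CPM. The third siER_E2 and the first siFOXA1_E2 library also had the high processed pseudogene shares, at 0.494% and 0.493%. FOXA1 itself averaged 582 ± 3.15 CPM in siER_E2, against 119.9 ± 0.529 CPM in siFOXA1_E2 (SD, n = 3 each; log2 fold change 2.28 ± 0.03). SLIT1 averaged 253 ± 10.9 CPM in siER_E2, against 44.4 ± 2.15 CPM in siFOXA1_E2 (2.51 ± 0.04), and the glycosyltransferase LFNG, which modifies Notch, 63.98 ± 2.52 against 10.8 ± 0.562 CPM (2.57 ± 0.06). On the other side, CYP4F8, a fatty acid hydroxylase, averaged 12.8 ± 0.529 CPM in siER_E2, against 135 ± 2.85 CPM in siFOXA1_E2 (-3.40 ± 0.08), the endocytic adaptor DAB2 11.96 ± 0.314 against 80.8 ± 2.03 CPM (-2.76 ± 0.06), and the laminin chain LAMB3 25.9 ± 1.25 against 161 ± 2.23 CPM (-2.64 ± 0.04). These genes were chosen as the extremes of this comparison among genes called in the receptor knockdown and with at least 10 CPM in both knockdowns.

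The direct comparison with the MDC1 knockdown called 8096 of 17744 genes (45.6%), 3815 higher and 4281 lower in siER_E2. By the same rule, the ion cotransporter SLC12A2 averaged 296 ± 9.64 CPM in siER_E2, against 89.5 ± 1.78 CPM in siMDC1_E2 (log2 fold change 1.73 ± 0.04), and the metalloproteinase inhibitor TIMP2 183 ± 3.77 against 56.6 ± 1.10 CPM (1.69 ± 0.04). SPTSSB, a subunit of the enzyme that starts sphingolipid synthesis, averaged 17.5 ± 0.363 CPM in siER_E2, against 84.9 ± 7.91 CPM in siMDC1_E2 (-2.28 ± 0.06), the phosphatase DUSP3 30.8 ± 1.56 against 121 ± 2.25 CPM (-1.97 ± 0.04) and the membrane protease ADAM9 196 ± 2.17 against 738 ± 13.7 CPM (-1.91 ± 0.03). ESR1 was lower in siER_E2 than in siMDC1_E2 (-0.96 ± 0.04), and so was GREB1, at 64.03 against 94.8 CPM (-0.57 ± 0.04). ESR1 was itself low in siMDC1_E2, averaging 129 CPM, against 573 CPM in siNT_E2.

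The effect of the receptor siRNA was next set against its effect in the other lines, with all 45 libraries in a single fit and CPM scaled over all of them, so that MM134 levels differ slightly from those above. The difference between the effect in MM134 and that in MM330 was called for 5456 of 21447 genes (25.4%), and the difference from HCC1428 for 5256 (24.5%). The targeted gene itself differed: ESR1 changed by -3.15 ± 0.06 in MM134, by -3.68 ± 0.06 in MM330 and by -0.97 ± 0.05 in HCC1428 on the log2 scale. The difference, MM134 minus HCC1428, was -2.17 ± 0.08 (adjusted p = 2.08e-24). In HCC1428 libraries ESR1 stood at 215, 211 and 225 CPM in siER_E2, against 420.0, 429 and 429 CPM in siNT_E2, so the depth of the knockdown moves with the line, and its part in the differences below was not tested. The share of counts at processed pseudogenes also differed between libraries of these lines, at 0.123% to 0.346% in siER_E2 and 0.128% to 0.344% in siNT_E2 of MM330, and at 0.129% to 0.38% in siER_E2 and 0.139% to 0.417% in siNT_E2 of HCC1428.

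The genes named from each line comparison were called for that difference and in the receptor knockdown, and had a mean of at least 10 CPM in a group of each line. Against MM330, MYC had the widest upward gap of these. The limit leaves out genes that were scarcely detected in MM330 and had larger fitted differences, such as EGR3, which averaged 0 CPM in siER_E2 and 0.906 CPM in siNT_E2 of MM330. MYC had 17.8, 16.8 and 18.8 CPM in siER_E2 and 101, 98.9 and 98.2 CPM in siNT_E2 libraries of MM134. In MM330, MYC had 0.516, 0.277 and 0.127 CPM in siER_E2 and 21.5, 19.2 and 21.9 CPM in siNT_E2 libraries. MYC fell in both lines, with log2 fold changes of -2.48 ± 0.08 in MM134 and -6.12 ± 0.16 in MM330, a difference of 3.64 ± 0.22 (adjusted p = 2.48e-16). The adhesion molecule MDGA1 rose in MM134 (1.57 ± 0.12) and fell in MM330 (-1.84 ± 0.14), and so did the drug exporter ABCC3 (1.82 ± 0.09 and -0.72 ± 0.07). SCD, the desaturase, ran the other way, at -0.27 ± 0.05 in MM134 and 1.74 ± 0.05 in MM330. The mucin MUC5B changed by -2.05 ± 0.10 in MM134 and by -0.01 ± 0.08 in MM330, where it did not pass, and the transcription factor gene GATA4 by -1.81 ± 0.09 and 0.44 ± 0.11.

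Against HCC1428, IGFBP5 had the widest downward gap of the genes within that limit. It had 11.1, 10.4 and 10.2 CPM in siER_E2 and 50.1, 47.2 and 48.1 CPM in siNT_E2 libraries of MM134, and 1180, 1120 and 1070 CPM in siER_E2 and 354, 388 and 341 CPM in siNT_E2 libraries of HCC1428. It fell in MM134 (-2.20 ± 0.08) and rose in HCC1428 (1.64 ± 0.06), a difference of -3.83 ± 0.10 (adjusted p = 1.17e-28). CDKN1A had 143, 145 and 140.0 CPM in siER_E2 and 55.1, 55.00 and 57.6 CPM in siNT_E2 libraries of MM134, and 16.8, 16.2 and 16.7 CPM in siER_E2 and 44.5, 43.9 and 43.9 CPM in siNT_E2 libraries of HCC1428. It rose in MM134 (1.35 ± 0.06) and fell in HCC1428 (-1.41 ± 0.06). The lamin gene LMNB1 and STC1 also rose in MM134 and fell in HCC1428, with differences of 1.88 ± 0.09 and 2.22 ± 0.15, and SPTSSB fell in MM134 and rose in HCC1428, with a difference of -2.57 ± 0.11. In MM134, the siFOXA1_E2 and siMDC1_E2 means of CDKN1A and STC1 also lay above both non-targeting means. PDZK1 and STC2 fell in both lines, further in MM134, with differences of -2.56 ± 0.14 and -2.28 ± 0.13. TMCO1 rose in all 3 lines, by 2.07 ± 0.08 in MM134, 2.06 ± 0.09 in MM330 and 1.44 ± 0.07 in HCC1428.

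**Figure D4:**
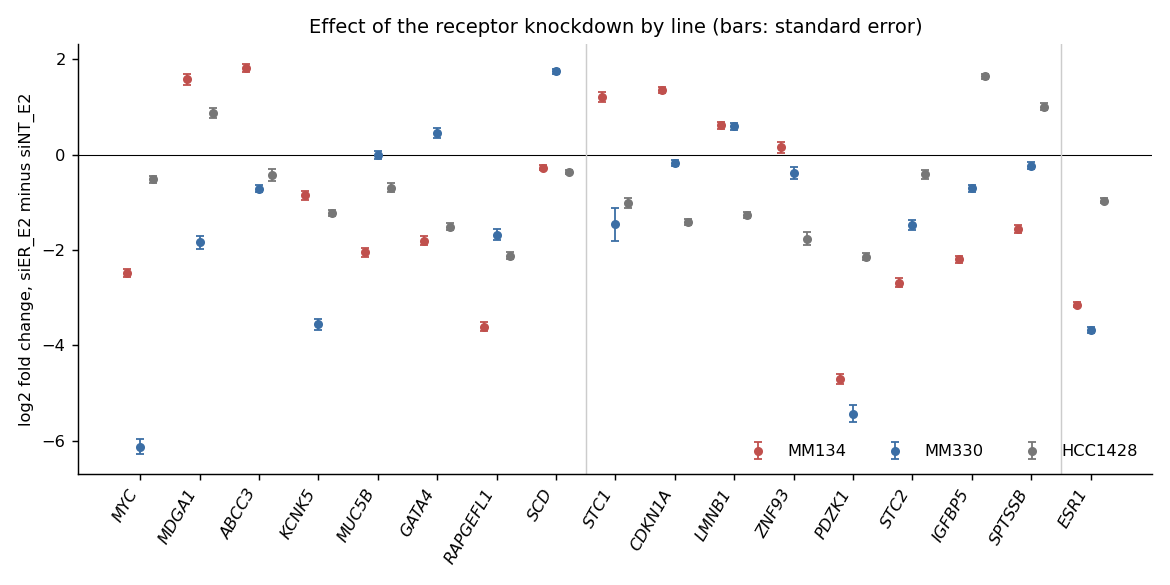
Log2 fold change, siER_E2 minus siNT_E2 (vertical, bars are standard errors, 3 libraries a group), in MM134 (red), MM330 (blue) and HCC1428 (grey) from the fit of 45 libraries. The first block holds the extremes against MM330, the second those against HCC1428, and ESR1 stands at the right, at -3.15 in MM134, -3.68 in MM330 and -0.97 in HCC1428.

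The median change differed between gene types. Of 13179 protein-coding genes tested, 4200 rose and 4600 fell (median -0.01), and without the third siER_E2 library 4049 rose and 4382 fell (median -0.01). Of 981 long intergenic noncoding RNAs, 229 rose and 97 fell (median 0.26), and without that library 209 rose and 99 fell of 1035 (median 0.26). Of 1394 antisense genes, 317 rose and 90 fell (median 0.23), and without it 291 rose and 83 fell of 1489 (median 0.23). Most genes of both noncoding types were not called, while 57.2% of all genes were. Without that library, 308 of 1035 long intergenic and 374 of 1489 antisense genes were called, against 9597 of 18141 genes in all. The strand setting of the counting is not given in the sources used here, so reads of an antisense gene and its partner may not be separated. Processed pseudogenes went with the library: 130 of 695 rose and 19 fell (median 0.59) with all libraries, and 40 of 738 rose and 31 fell (median -0.14) without it. No rise of processed pseudogenes is therefore reported for the knockdown.

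**Figure D5:**
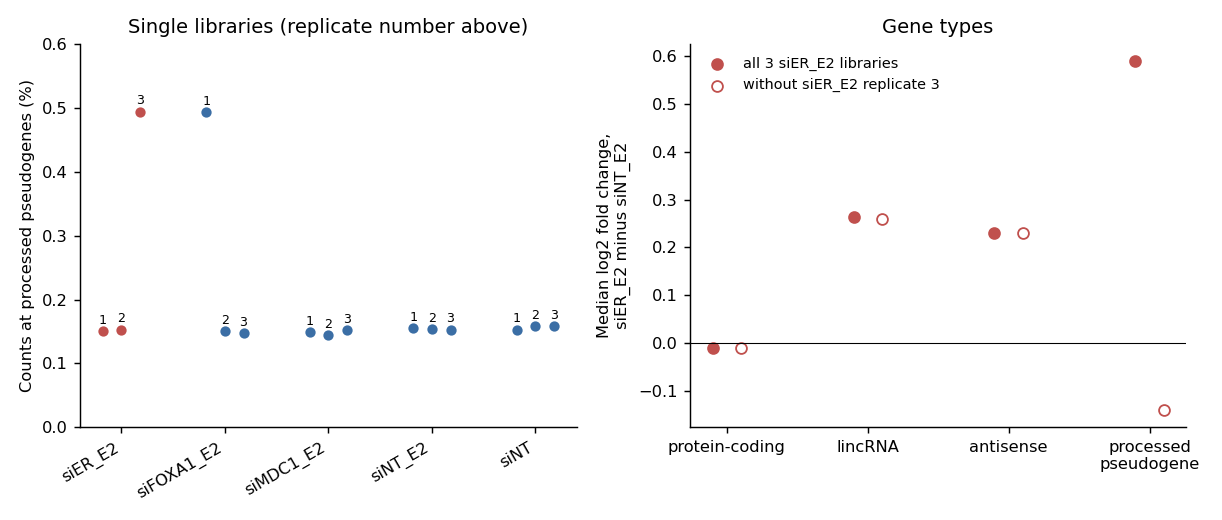
Left, percent of counts at processed pseudogenes (vertical, from 0) in each of the 15 MM134 libraries, siER_E2 in red, with replicate numbers above the points; siER_E2 replicate 3 (0.494%) and siFOXA1_E2 replicate 1 (0.493%) stand above the rest (0.145% to 0.158%). Right, median log2 fold change, siER_E2 minus siNT_E2, by gene type with all libraries (filled) and without siER_E2 replicate 3 (open); the median of processed pseudogenes is 0.59 with it and -0.14 without it.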

How the data were processed

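The deposited table holds raw read counts per gene, and its columns carry the sample titles. Per the submitters' processing notes, STAR 2.6.0a, limma and the build hg38 (GRCh38) were used; the counting tool, annotation and strand setting are not given in the sources used here. Gene types and positions were taken from GENCODE release 29, which held 56598 of the table's symbols. The 27 gene names written as dates took 0.19% of the counts and were left in.

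edgeR 4.0.16 (R 4.3.3) was run on the counts with filterByExpr, TMM scaling and a quasi-likelihood test over the 15 MM134 libraries, or all 45 for differences between lines, with Benjamini-Hochberg adjustment over all genes and a threshold of 0.05. Alternatives were RLE scaling, no filter, the replicate number as a block, DESeq2 1.42.0, limma-voom (limma 3.58.1), a fit of the 6 compared libraries and leaving out each library. Restricting the libraries by pseudogene share, or adding a term for it, was chosen after seeing the data. Scripts were tested on simulated data.

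Named genes were ESR1, FOXA1 and MDC1, the 12 highest and 12 lowest as given in the text, up to 4 members of each of the 37 lists by smallest p in the main direction and up to 2 in the other, and the 4 highest and lowest of each further comparison; the text uses fewer. The members and lists were chosen with earlier results of these data known.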

Additional observations from a re-analysis of the deposited data

Results flagged for a closer look

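The effect of the receptor siRNA differed between lines by an interaction term in edgeR, with Benjamini-Hochberg adjusted p-values. Values are the log2 effect in MM134 minus that in the other line. Relative to MM330 the difference was 3.64 for MYC, 3.42 for MDGA1, 2.69 for the potassium channel gene KCNK5 and 2.54 for ABCC3, and it was -2.25 for GATA4, -2.04 for MUC5B, -2.01 for SCD and -1.93 for RAPGEFL1, with adjusted p between 4.6e-24 for SCD and 3.5e-13 for RAPGEFL1. Relative to HCC1428 it was 2.76 for CDKN1A, 2.22 for STC1, 1.91 for the zinc finger gene ZNF93 and 1.88 for LMNB1, and it was -3.83 for IGFBP5, -2.57 for SPTSSB, -2.56 for PDZK1 and -2.28 for STC2, with adjusted p between 1.2e-28 for IGFBP5 and 5.6e-12 for ZNF93. ZNF93 did not pass in MM134 in the fit of 45 libraries (log2 fold change 0.15, adjusted p = 0.29) and fell in HCC1428 (-1.76). ESR1 itself fell less in HCC1428, and the part of this in the differences was not tested. In MM134, CDKN1A and STC1 were also above both non-targeting means in siFOXA1_E2 and siMDC1_E2.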

How the results depend on the processing

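The number of genes called in the receptor knockdown was 9306 to 9703 when single libraries were left out and 9784 to 10119 under the other alternatives, against 10141 as reported. Against siFOXA1_E2 it was 8308 to 8913 and 8477 to 9460 (9100 reported), and against siMDC1_E2 7282 to 7624 and 7787 to 8105 (8096 reported). The line difference from MM330 gave 4907 to 5191 and 4404 to 5938 (5456 reported), and that from HCC1428 4775 to 4963 and 3594 to 5775 (5256 reported). All 78 of these counts lay within 1.5 times the reported ones. Of 2982 values for the 213 named genes in the receptor knockdown, 2966 kept direction and call, 16 lost the call and 0 reversed; the losses were in BUB1, ZNF93, GPRC5A and KCNN1, and the cause was not tested. The numbers of genes that fell in the 37 lists all stayed within 1.5 times the reported ones, and 16 of 518 numbers that rose did not, in the lists of potassium channels, mitosis, glycolysis, DNA repair and estradiol-induced intracellular targets. List medians moved by 0.1 or more on the log2 scale in 21 of 518 values over 9 lists: the fibroblast, immune and endothelial markers, growth factor receptors, p53 targets, basal genes, antigen presentation, secreted targets and WNT ligands. Without a filter on low counts the medians of growth factor receptors and basal genes were -0.03 and 0.01, and antigen presentation stood at -0.05 without the second siER_E2 library. The median change of all genes stayed between 0.00 and 0.06 on the log2 scale under every scaling. With the replicate number as a block, 10054 genes were called for MM134 siER_E2 minus siNT_E2. Same-numbered siER_E2 and siNT_E2 libraries had deviations correlated at -0.013, 0.003 and -0.013, which gave no sign of pairing. With 3 libraries a group, such values cannot exclude a shared culture or transfection. Processed pseudogenes that rose 2-fold or more numbered 110 as reported, 29 without the third siER_E2 library and 238 or 234 without the first or the second.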

Other observations

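A few genes outside the naming rule, chosen after their values were seen, had changes as large as those named. TP53INP1, a p53-induced protein linked to autophagy, had 1.47, 1.66 and 1.84 CPM in siER_E2, against 0.113, 0.0351 and 0.12 CPM in siNT_E2 (log2 fold change 4.14 ± 0.42). KLF9, a Krüppel-like factor that hormones regulate, had 3.83 to 4.46 CPM in siER_E2, against 0.424, 0.492 and 1.08 CPM in siNT_E2 (log2 fold change 2.66 ± 0.24). Both rose with no overlap between groups, as did 31.9% of all genes. Both lay under the limit of 10 CPM for the extreme genes, and their siNT_E2 levels were near the floor. The siNT libraries without hormone averaged 0.928 CPM for TP53INP1 and 2.03 CPM for KLF9. RARB, a retinoic acid receptor gene too low to be tested, had 0, 1 and 0 raw counts in siER_E2 libraries, 15, 9 and 8 in siNT_E2 libraries and 4, 0 and 0 in siNT libraries. EGFR and PPARG had 0 counts in all 9 of these libraries.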
